A study of Saccharomyces cerevisiae with 6 samples.

Results

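Mitochondrial ribosomal proteins are the protein subunits of the ribosome that works inside mitochondria. The genes described here were chosen by their symbols: every gene on the array called MRPL, MRPS, MRP, RSM or IMG with a number, and MNP1, but not MRP8. This gave 68 of 5379 named genes, 40 of the large subunit and 28 of the small subunit, each on 1 probe. The symbol rule used no measured value, but earlier results of these data were known when it was set. NCBI's list of S288C genes supplied a systematic name for all 68. It also gave 67 of them a ribosomal protein family name in its mitochondrial form, which fits the label. RSM22 had none.

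Saccharomyces cerevisiae S288C, the reference laboratory strain, was grown in YPD, a rich glucose medium, at 25 °C to exponential phase. Cells then received 1.8 mM formaldehyde for 2 h, or were grown on for 2 h with no addition. Poly(A) RNA of treated cells was labelled with Cy5 and that of control cells with Cy3, and both were hybridised to the same array. There were 3 arrays from independent biological samples, each read at a high and a low laser setting, and no array had the dyes exchanged, so a gene's dye effect and the treatment cannot be told apart.

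The mitochondrial ribosome descends from a bacterial ribosome. In yeast it makes a handful of proteins encoded by mitochondrial DNA, nearly all of them membrane subunits of the respiratory chain and the ATP synthase. Its own protein subunits, with the exception of Var1, are encoded in the nucleus, made in the cytosol and imported. Some have relatives in every ribosome (families written uL or uS), some only in bacterial ribosomes (bL or bS), and others are found only in mitochondrial ribosomes (mL or mS). Of the 68 genes, 27 belonged to universal families, 16 to bacterial-type families and 24 to families specific to mitochondria.

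All values below are log2 ratios of treated over control. This direction is the likely one, because Cy5 is listed first for each array, but it is not stated. If the ratio ran the other way, each higher would read lower. The authors' normalisation set the zero of every scan, so the ratios do not show a change common to nearly all transcripts. In RNA from whole cultures, fewer cells that express a gene and less transcript per cell cannot be told apart.

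The members were measured unevenly. Array 1 had a value for 32 of them (47.1%), array 2 for 46 (67.6%) and array 3 for 59 (86.8%). For all named genes these shares were 46.4%, 61.9% and 79.8%. All 3 arrays had a value for 28 members, 16 members had a value on 2 arrays, 21 on 1 array and 3 on none. Those 3, named after this was seen, were MRP13, MRPL22 and MRPL24. A low power value was present for 4, 12 and 21 members on arrays 1, 2 and 3. That was 12.5%, 26.1% and 35.6% of the members with a value, against 30.1%, 34.5% and 34.3% of all genes with a value.

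Most of the 28 members with a value on all arrays had a mean within 1 of 0. Their median mean log2 ratio was 0.01 (from -0.31 to 0.05 when 1 array was left out). The mean lay within 1 of 0 for 24 of them, whereas it did for 62.0% of the 2133 genes tested. Single arrays could lie farther out. On array 1, 7 of the 28 were at -1 or below and 2 at 1 or above, as were 417 and 443 of the 2133 genes. The members numbered 5 and 0 on array 2, and 3 and 1 on array 3. In the limma fit over those 2133 genes, 8 members fell, 1 rose and 19 did not pass an adjusted p of 0.05 (Benjamini-Hochberg). Of all genes tested, 25.3% were called lower and 37.2% higher. The members called lower were thus 8 of 28, near the share of all genes, and the member called higher was 1 of 28, below it. The median absolute log2 ratio was 0.34 for the members and 0.75 for all tested genes.

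**Figure D1:**
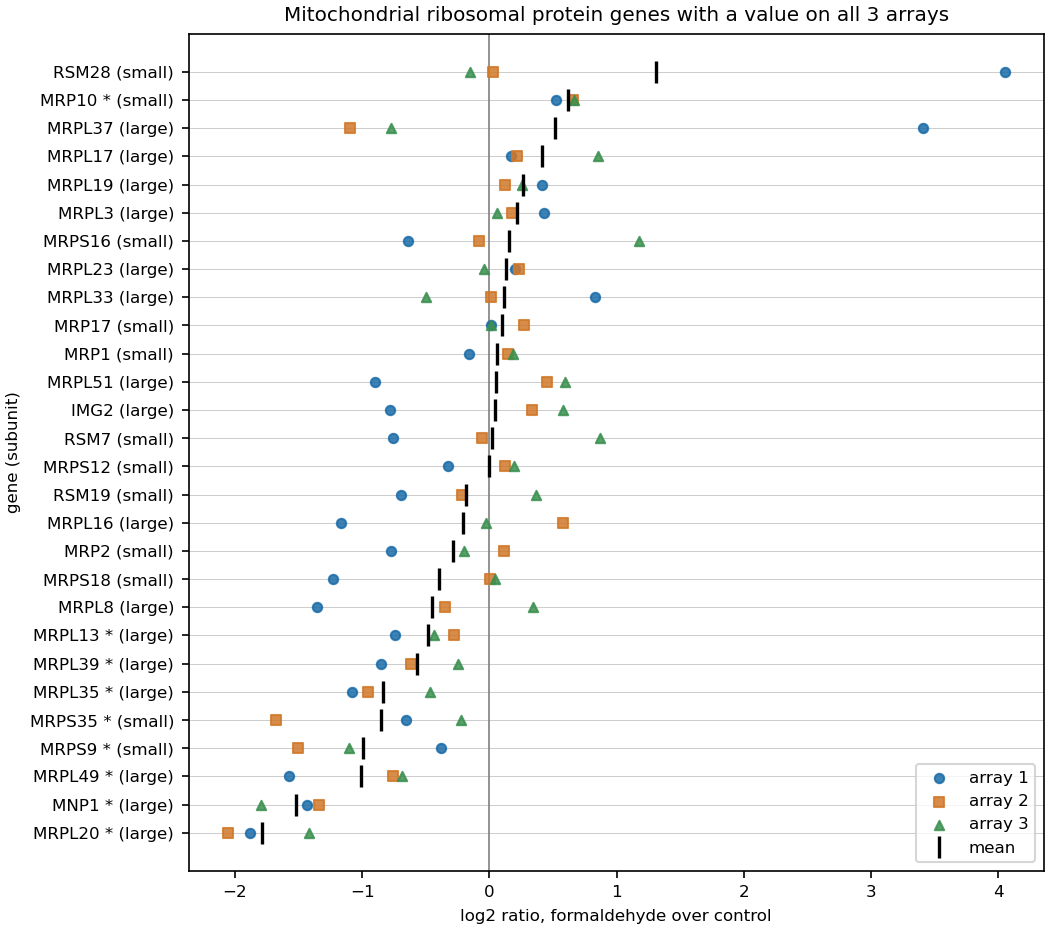
Log2 ratio (formaldehyde over control, x axis) of the 28 genes with a value on all 3 arrays, sorted by mean; each symbol is 1 array and the bar is the mean. Asterisks mark genes past adjusted p of 0.05: 8 are below 0 and MRP10 is above 0, and RSM28 and MRPL37 stand apart on array 1.

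Among large subunit genes, MRPL20 (YKR085C) had the lowest mean. It encodes mL58, a protein with no bacterial counterpart. Its log2 ratios were -1.88, -2.06 and -1.42 on arrays 1, 2 and 3. It fell by 1.79 ± 0.33 (SD, n = 3), or 3.45-fold, with limma adjusted p = 0.000212. MNP1 (YGL068W) encodes bL12m, the counterpart of the bacterial L7/L12 protein of the stalk, which contacts translation factors. Its values were -1.44, -1.34 and -1.79. It fell by 1.52 ± 0.24, or 2.87-fold, with limma adjusted p = 0.000314, and was the only one of these 2 genes with a low power value on every array. All 3 arrays put both genes beyond -1, which no other called member showed.

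MRPL49 (YJL096W), the bL21m gene, had values of -1.58, -0.76 and -0.69. It fell by 1.01 ± 0.49, or 2.01-fold (limma adjusted p = 0.00634). MRPL35 (YDR322W) encodes mL38, a mitochondria-specific protein, and had values of -1.08, -0.95 and -0.47. It fell by 0.83 ± 0.32, or 1.78-fold (limma adjusted p = 0.00707). Array 1 gave the lowest value for both genes. MRPL20, MNP1, MRPL49 and MRPL35 were the 4 members called lower under every alternative that measured them. Of these 4, only MNP1 could be tested with low power scans alone. The array 3 value of MRPL35 averaged -0.94 at high and 0.004 at low power, and its other arrays had no low power value.

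The other 2 large subunit genes that fell did so by less. MRPL39 (YML009C), which encodes bL33m, had values of -0.85, -0.61 and -0.24 and fell by 0.57 ± 0.31 (limma adjusted p = 0.0316). MRPL13 (YKR006C), which encodes mL50, had values of -0.74, -0.28 and -0.44 and fell by 0.49 ± 0.23 (limma adjusted p = 0.0445). MRPL39 missed the threshold without array 1 (-0.43, limma adjusted p = 0.076) and without array 2 (-0.55, limma adjusted p = 0.13). MRPL13 missed it whichever array was left out (-0.36 to -0.59, limma adjusted p from 0.095 to 0.14).

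In the small subunit 2 of the 12 genes tested fell, where 25.3% of all genes tested were called lower. MRPS9 (YBR146W) encodes uS9m, a protein of the universal uS9 family, and had values of -0.38, -1.50 and -1.10. It fell by 0.996 ± 0.57, or 1.99-fold (limma adjusted p = 0.00941), and missed the threshold without array 3 (-0.94, limma adjusted p = 0.064). MRPS35 (YGR165W) encodes mS45, which is specific to mitochondria, and had values of -0.66, -1.68 and -0.22. It fell by 0.85 ± 0.75, or 1.81-fold (limma adjusted p = 0.0336). Array 2 was lowest for both genes, and without it MRPS35 stood at -0.44 with limma adjusted p = 0.22.

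MRP10 (YDL045W-A) was the member that rose. It encodes mS37, a small protein with paired cysteine motifs. Its values of 0.52, 0.65 and 0.67 were the closest together of all 28 members. It rose by 0.62 ± 0.08, or 1.53-fold (limma adjusted p = 0.0133). The call was lost without array 2 (0.60, limma adjusted p = 0.090) and without array 3 (0.59, limma adjusted p = 0.061), with nearly the same mean. Those fits rest on 2 arrays.

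RSM28 and MRPL37 had the highest and the third highest mean of the 28, and each rested on array 1. RSM28 (YDR494W), which encodes the small subunit protein mS46, had values of 4.05, 0.03 and -0.16. MRPL37 (YBR268W), which encodes the large subunit protein mL54, had values of 3.41, -1.10 and -0.77. Neither passed in the limma fit (adjusted p = 0.17 and 0.61). Without array 1 the mean of RSM28 was -0.07 (limma adjusted p = 0.81) and that of MRPL37 was -0.94 (limma adjusted p = 0.000107, on 2 arrays). The array 1 values of both came from the high power scan alone, but only 4 members had a low power value on array 1. Of the 2133 genes tested, 4 had an array 1 value more than 3 above both other arrays. The other two were WSS1 and COG2.

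The remaining members did not pass. MRPL17 (mL46) had values of 0.17, 0.21 and 0.85 and MRPL19 (uL11m) had values of 0.42, 0.13 and 0.26. They complete the 5 highest means, at 0.41 ± 0.38 and 0.27 ± 0.15. MRPL17 passed without array 1 (0.53, limma adjusted p = 0.027, on 2 arrays). Of the 19 members that did not pass, 13 had a mean above 0 and 4 had the same sign on all arrays. For 15 of the 19 the 95% interval of the mean lay within 1 of 0 on the log2 scale, so a change of 2-fold or more lay outside it. MRPS12, which encodes the decoding-site protein uS12m, was closest to 0, with an interval from -0.43 to 0.43.

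The members agreed less between arrays than genes at large. Their median SD over the arrays was 0.47, against 0.29 for all tested genes. Across the 28 members, Pearson's r was 0.18 between arrays 1 and 2, 0.05 between arrays 1 and 3, and 0.74 between arrays 2 and 3. Without RSM28 and MRPL37 it was 0.52, 0.37 and 0.73, and across all 2133 genes it was 0.90, 0.89 and 0.95. These are descriptions across genes that share arrays and labelled RNA. Means ran from -1.79 to 1.31 in the members and from -5.03 to 6.53 in all tested genes. A narrower range lowers r, so the r values of the 2 sets are not like for like. Array 1 also put the members lower: their medians were -0.67, 0.01 and -0.01 on arrays 1, 2 and 3, and the medians of all tested genes were 0.05, 0.21 and 0.31. Array 1 held the lowest of the 3 values for 18 of 28 members and for 48.8% of all tested genes.

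The subunits overlapped. The 16 large subunit genes with a value on all arrays had a median of -0.08, with 6 lower and none higher in the limma fit, where MRPL17 came nearest to a rise (adjusted p = 0.11). The 12 small subunit genes had a median of 0.01, with 2 lower and 1 higher. Of all genes tested, 25.3% were called lower and 37.2% higher, and the counts per subunit were not tested. The ranges overlapped, from -1.79 to 0.51 in the large and from -0.996 to 1.31 in the small subunit. The median of the large subunit minus that of the small was -0.31, -0.15 and -0.26 on arrays 1, 2 and 3, and -0.09 over the array means. With the 44 members measured on 2 or more arrays it was 0.051, and without array 3 it was 0.085, so its sign is not settled.

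By family class, the 6 bacterial-type proteins with a value on all arrays had a median of -0.51, with 3 lower (MNP1, MRPL49 and MRPL39). The 10 universal proteins had a median of -0.09, with 1 lower (MRPS9), and the 12 mitochondria-specific proteins one of 0.05, with 4 lower and 1 higher. Bacterial-type genes differed between arrays, with medians of -1.10, -0.48 and -0.11. The shares lower are to be read against the 25.3% of all tested genes called lower and 37.2% called higher. Over every member with a value the medians were -0.45 for 15 bacterial-type, -0.19 for 26 universal and -0.33 for 23 mitochondria-specific genes, which turns the order of the last classes. The difference between classes was not tested.

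The universal families allow each mitochondrial protein to be set beside the cytosolic protein of the same family on the same arrays. The array held 124 genes of the cytosolic ribosome, the ribosome that makes the bulk of cellular protein, and all 67 of those with a value on all arrays fell (limma), with means from -5.03 to -1.26. Of the 28 mitochondrial members, 2 (MRPL20 and MNP1) had a mean below the highest of these. In 21 of the families with a member among the 68 genes, both proteins had values on at least 1 common array, and in all 21 the mitochondrial member had the higher ratio on every array they shared. In the 9 of these measured on all arrays, mitochondrial means ran from -0.996 to 0.27 and cytosolic means from -3.91 to -1.26. The median difference was 3.36, 2.79 and 3.30 on arrays 1, 2 and 3, and 3.03 over the array means. Another 2 families, with the mitochondrial proteins RML2 (uL2) and NAM9 (uS4), are not in these counts because of their names. RML2 minus its cytosolic partners was 2.91, 3.31 and 3.47 on arrays 1, 2 and 3, and NAM9 minus RPS9B was 4.06 on array 3. The 67 cytosolic genes had a median of -3.49. All 2133 tested genes had a median of 0.18 and a lower quartile of -0.52, so most genes also lay above the cytosolic ones. A gap to the cytosolic genes is thus not particular to the mitochondrial members. The difference was not tested, and many cytosolic genes exist as near-identical pairs between which cDNA may cross-hybridise.

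The widest gap was in uL11, a protein of the stalk base, where MRPL19 stood at 0.27 and the cytosolic RPL12B at -3.89, a difference of 4.16 ± 0.64 (SD, n = 3). In uS2, MRP4 and RPS0A differed by 3.74 on array 1 and 4.55 on array 3. In uS12, MRPS12 and RPS23A differed by 3.91 ± 0.13 over 3 arrays. The narrowest gap was in uL16, where MRPL16 at -0.20 and RPL10 at -1.26 differed by 1.06 ± 0.76. There RPL10 was the least lowered cytosolic gene of the 67. In uS8 the only shared value, on array 3, was -1.15 for MRPS8 and -2.34 for RPS22B. In uS11, MRPS18 at -0.39 and RPS14B at -2.39 differed by 2.00 ± 0.91.

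**Figure D2:**
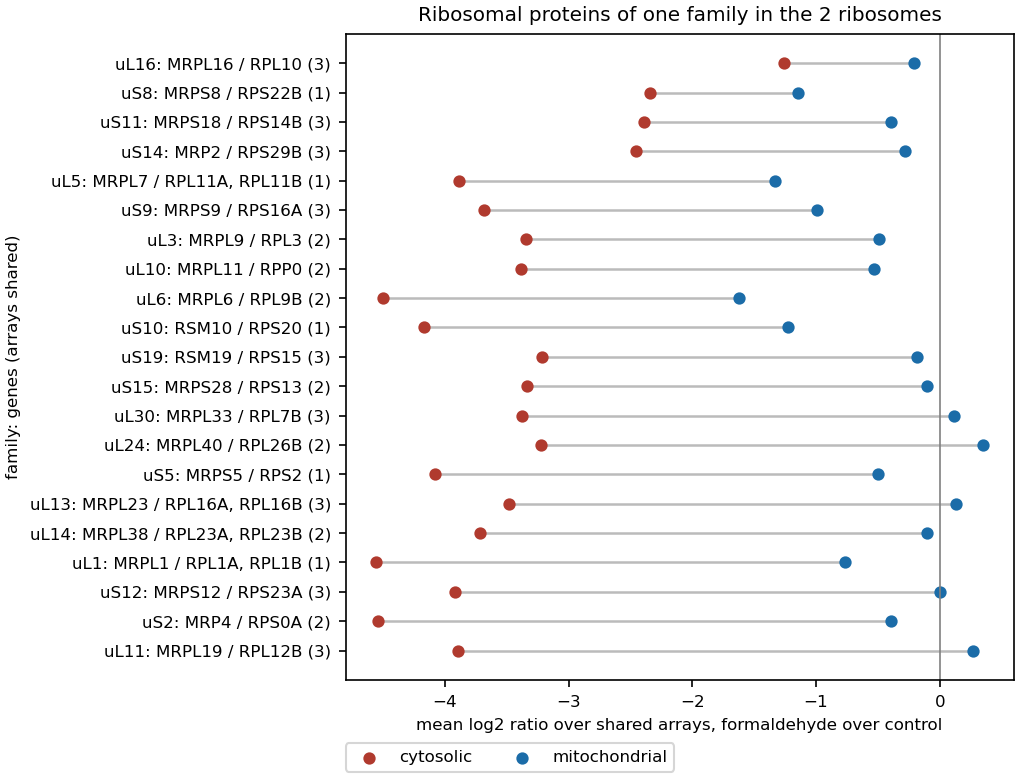
Mean log2 ratio (formaldehyde over control, x axis) of the mitochondrial and the cytosolic ribosomal protein of each universal family with a member among the 68 genes, over the arrays both share (number in brackets). In all 21 families the mitochondrial point lies to the right, by 1.06 to 4.16. The median of all tested genes was 0.18.

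Over the array means, members with a value on fewer arrays had lower ratios, but single arrays did not all share this order. The median mean log2 ratio was 0.01 for the 28 members on all arrays, -0.32 for the 16 on 2 arrays and -0.44 for the 21 on 1 array. Of these groups 14, 13 and 18 members were below 0. Over all named genes the medians were 0.18, -0.09 and -0.20, and the order was the same in both sets. On array 3 alone, which measured the most, the members' medians were -0.01, -0.31 and -0.50 and those of all genes were 0.31, 0.02 and -0.21. On array 2 the members' medians were 0.01, -0.56 (12 genes) and -0.38 (6 genes), with the last groups in the other order. On array 1 the 4 members with 2 values had a median of 0.09, above the -0.67 of the 28. A median over the 28 members tested is therefore not one over the 68. Taken across all 65 measured members it was -0.30, with 45 below 0, against 0.01 for the 4679 genes with any value.

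**Figure D3:**
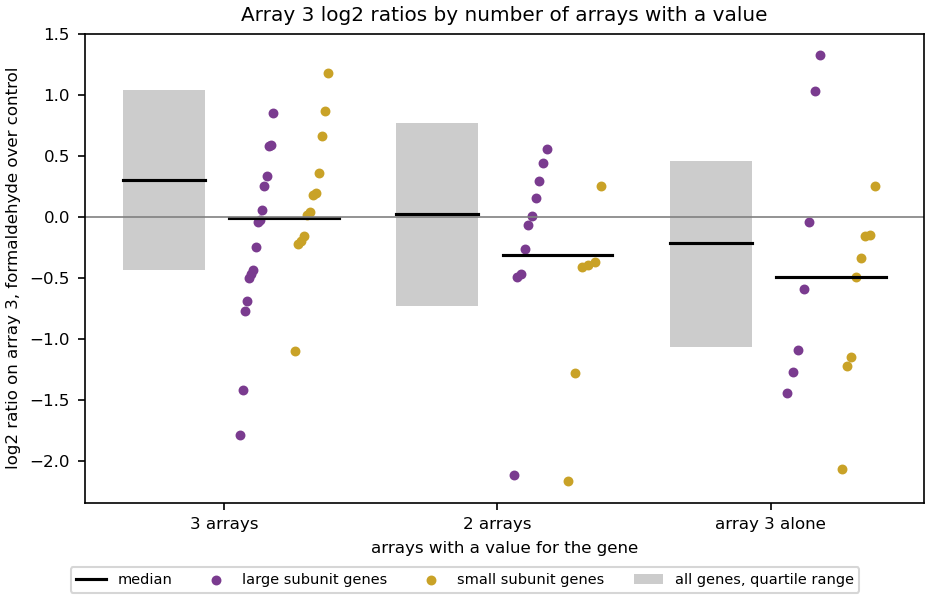
Log2 ratio on array 3 (formaldehyde over control, y axis) of the genes with a value there, by the number of arrays with a value; dots are large and small subunit genes, grey bars the quartile range of all genes, and black lines medians. The members' medians are -0.01, -0.31 and -0.50, each below that of all genes.

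Among the 16 members with values on 2 arrays, RSM26 and MRPL6 lay beyond -1 on both. RSM26 (YJR101W) encodes the small subunit protein mS42, which is related to iron and manganese superoxide dismutases. Its values were -1.98 and -2.17 on arrays 2 and 3, a mean of -2.07, or 4.21-fold lower, which was the lowest of all members. MRPL6 (YHR147C), the uL6m gene, had values of -1.13 and -2.11, a mean of -1.62, or 3.08-fold lower. MRP21 (YBL090W), the bS21m gene, had values of -0.56 and -1.28.

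These 3 genes were called lower when limma was run on the 3307 genes with a value on at least 2 arrays, with adjusted p = 6.84e-05, 0.00101 and 0.0185. Each rests on 2 values, so its p depends mostly on the variance shared across genes. The prior degrees of freedom were 9.63 here and 4.84 in the main fit, so p values of the 2 fits are not comparable. In the fit of 3307 genes, 10 of 44 members were lower and 1 was higher, where 24.7% of all genes were lower and 30.3% higher. MRPL13 missed the threshold there (adjusted p = 0.074). The 13 others with 2 values had means from -0.53 (MRPL11, uL10m) to 0.35 (MRPL40, uL24m) and did not pass.

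Single-array values reached as far. Among the members with a value on array 3 alone, RSM25 (mS23) was at -2.07, MRPL15 (mL57) at -1.44 and MRPL50 (bL9m) at -1.28. At the other end were IMG1 (bL19m), whose name refers to the integrity of the mitochondrial genome, at 1.33, MRP20 (uL23m) at 1.04 and MRP51 (bS1m) at 0.26. The 6 members with a value on array 2 alone ran from -1.33 (MRPL7) to -0.30 (MRPL27). These have no replicate and were not tested.

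Whether a gene had a value moved with the number of its probe. Digits 2 and 3 of the probe number run from 1 to 24 and their meaning is not stated in the labels. On array 1 the share of named probes with a value was 74.4% at number 1 and 20.4% at number 24. On array 2 it was 50.4% at 1, 84.1% at 13 and 25.3% at 24, and on array 3 it was 98.7% at 1, 58.0% at 16 and 68.8% at 24. Each array thus had its own profile along these numbers. Of the 39 members numbered 1 to 12, 24 (61.5%) were measured on every array. Of the 29 numbered 13 to 24, 4 (13.8%) were. For all named genes the shares were 50.1% and 29.2%.

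The members' medians were also lower at numbers 13 to 24. On array 3 the members' median was -0.15 for numbers 1 to 12 and -0.41 for 13 to 24, and on array 2 it was -0.07 and -0.55. On array 1 it was -0.35 (28 genes) and -1.06 (4 genes). For all genes these medians were 0.15 and 0.09 on array 3, 0.15 and -0.08 on array 2, and 0.11 and -0.15 on array 1. Within numbers 1 to 12, members measured on every array had a median of 0.01 and the less measured ones -0.26. Within 13 to 24 the medians were -0.17 (4 genes) and -0.50. Numbers 13 to 24 held 23 of the 37 members with 1 or 2 values. These included the low RSM26, MRPL6, RSM25, MRPL15 and MRPL50, and also IMG1 and MRP51, which were above 0. MRPL49 was the 1 of the 9 called members there. The part of the probe number in these ratios was not tested.

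**Figure D4:**
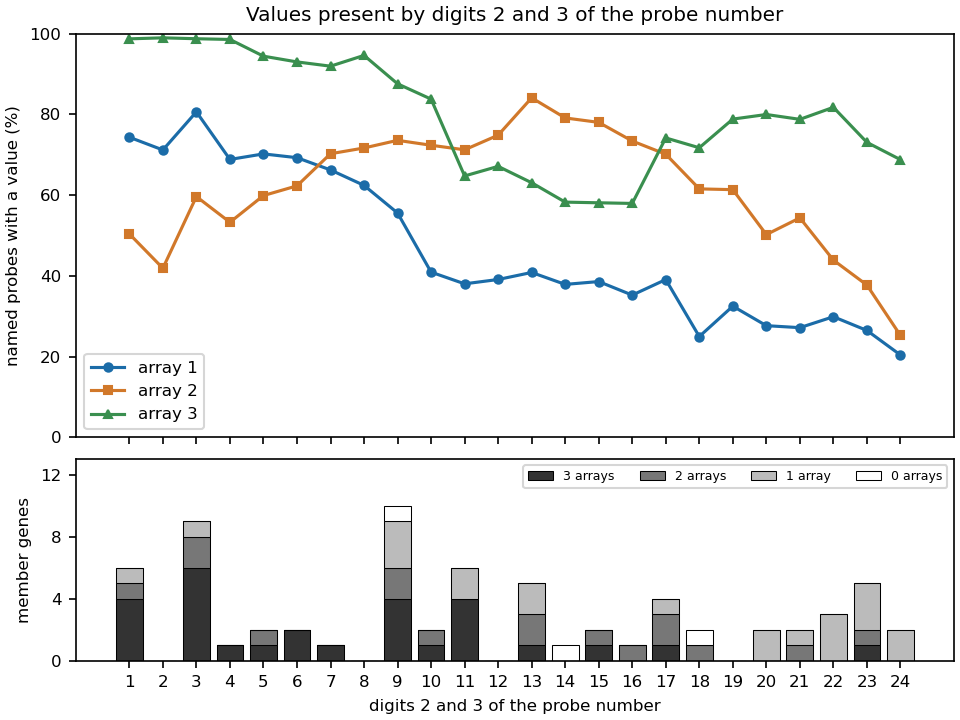
Top: percentage of named probes with a value on each array (y axis) by digits 2 and 3 of the probe number (x axis). Bottom: number of mitochondrial ribosomal protein genes at each number, shaded by the number of arrays with a value, with 24 of 28 fully measured genes at numbers 1 to 12.

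Many other genes of mitochondrial translation also lacked a value on some array. Of 10 mitochondrial ribosomal proteins with other names, 4 had a value on all arrays. EHD3 rose and none fell. EHD3 encodes mS47, which is also related to a hydrolase of valine breakdown. Its values were 1.48, 1.47 and 1.10, and it rose by 1.35 ± 0.22 (limma adjusted p = 0.000523). The others were RML2 (uL2m) at 0.06 ± 0.10, RTC6 (bL36m) at 0.03 ± 0.29 and MRX14 (bL34m) at -0.10 ± 0.12, none of which passed (limma adjusted p from 0.61 to 0.91).

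Of 13 translation factors and tRNA-acting proteins, 4 were tested and 1 fell. The 3 that did not pass, MTO1, MSS1 and PTH2, act on tRNA or peptidyl-tRNA (limma adjusted p from 0.16 to 0.83). TUF1, the mitochondrial elongation factor Tu, had values of -1.33, -1.52 and -1.61 and fell by 1.49 ± 0.14 (limma adjusted p = 0.000262). Of 13 mitochondrial aminoacyl-tRNA synthetases, which charge tRNAs with amino acids, 3 were tested and 2 rose. Of all tested genes 37.2% were called higher and 25.3% lower, so counts this small say little about a list. MSF1, for phenylalanine, rose by 1.396 ± 0.29 and SLM5, for asparagine, rose by 1.41 ± 0.12 (limma adjusted p = 0.000592 and 0.000316). The third, MSY1 for tyrosine, was at -0.46 ± 0.31. Of 15 translational activators, which act on single mitochondrial messages, 4 were tested. AEP3, which acts on the ATP6 and ATP8 message, rose by 1.29 ± 0.09, and AEP1, needed for translation of OLI1, fell by 0.62 ± 0.27 (limma adjusted p = 0.000461 and 0.0201).

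None of the 11 genes listed under ribosome assembly and ribosomal RNA modification had a value on all arrays. Of all named genes 39.7% had one. The list also took in the membrane proteins OXA1, MBA1 and MDM38. The median of the 9 measured on fewer was -0.25. MAM33 was the farthest from 0, at -1.62 on array 3 alone. Of 8 genes of mitochondrial DNA upkeep and transcription, 3 were tested and did not pass (limma adjusted p from 0.28 to 0.45), and MGM101 was at -1.13 and -0.99 on arrays 1 and 3. Of 5 mitochondrially encoded genes, whose messages in yeast lack a poly(A) tail, COX3 was the 1 tested. Its values were 0.39, 0.57 and 0.24 (limma adjusted p = 0.071), and ATP8 was at 0.77 on array 3 alone.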

How the data were processed

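The authors deposited 1 log2 ratio per probe and scan, normalised by LOWESS within each scan over unflagged spots, per the labels' descriptions. The log2 base follows from the lowest value. Spot intensities were not used, so signal over background is unknown and the 3 arrays set the precision. Of 6912 probes, 5446 had 1 symbol in GEO's platform annotation. Probes of a gene were averaged, then the high and low power scans of an array (or the one present). For 2133 genes with a value on all arrays, limma 3.58.1 (R 4.3.3) compared the mean of the 3 arrays with 0 (lmFit, eBayes, Benjamini-Hochberg, adjusted p under 0.05; 2 residual and 4.84 prior degrees of freedom). The fit was also run on simulated independent normal ratios. These held no dye effect and no outlying array, so that run does not cover either.

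Cytosolic partners were averaged over the gene copies with a value on all arrays. The members, lists and tests were chosen with earlier results of these data known. Named genes are all called members, the 5 highest and 5 lowest means, members ranging over more than 2 between arrays, members with both of 2 values beyond 1, the 3 highest and 3 lowest on array 3 alone, called genes of other lists (or the one farthest from 0), and the 3 widest and 3 narrowest families.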

Additional observations from a re-analysis of the deposited data

How the results depend on the processing

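The same 8 members were called lower, and MRP10 higher, with high power scans alone, with 6 scans and the array as a random block, with both centrings, with arrays scaled to one deviation, with single probes and with robust eBayes. At adjusted p under 0.01, 5 were lower and 0 higher (MRP10 was higher at 0.05). Of all 2133 genes, 404 were lower and 576 higher at that threshold. With low power scans alone 3 members could be tested, of which 2 were lower and 0 higher in limma, and no family could be compared. Of the 560 genes tested in that setting, 178 were lower and 225 higher. Leaving out each array gave 5 to 7 members lower and 0 to 4 higher. Without array 1 the 4 were MRP10, MRPL17, MRPL51 and MRPS16, and without array 2 the 2 were RSM28 and MRPL37. Of all 2133 genes, 541 were lower and 889 higher without array 1. Without array 2 the counts were 455 and 670, and without array 3 they were 461 and 614. The fits without an array rest on 2 arrays and 1 residual degree of freedom. Their prior degrees of freedom were 88.2, 25.3 and 3.82 without arrays 1, 2 and 3, against 4.84 in the main fit. Their p values are thus not comparable with each other or with the main fit. In the fits without an array, the means of RSM28 ran from -0.065 to 2.04. Those of MRPL37 ran from -0.94 to 1.32, and both were lowest without array 1.

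The large minus small subunit median was -0.90 with low power scans alone (3 members), 0.051 with a value on at least 2 arrays, -0.20 without RSM28 and MRPL37 (chosen after seeing the data), and -0.30 to 0.085 when arrays were left out. The median difference between the ribosomes over 9 families was 2.60 to 3.12 when arrays were left out. The members' median ran from -0.31 to 0.05 when arrays were left out and was -0.05 and -0.08 with the centrings, so its sign is not settled. With no spot intensities, how far dim spots limit the ratios cannot be given.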

Other observations

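MRPS12 and RSM19, which encode the small subunit proteins uS12m and uS19m, are the only members that are direct neighbours in the S288C gene order. Their log2 ratios were -0.32 and -0.69 on array 1, 0.13 and -0.21 on array 2, and 0.20 and 0.36 on array 3, and neither passed the test.

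The scans of one array differed for the members. On array 3, 21 members had both scans, and the low power ratio was above the high power ratio in 17 of them, by a median of 0.39 over the 21. The median over all 1466 genes with both scans was 0.15, and over the 927 of them with a high power ratio within 1 of 0 it was 0.18. On array 2 the low power ratio was above the high power ratio in 11 of 12 members, by a median of 0.22, against 0.11 for all genes. On array 1 it was above in 2 of 4 members. There MRPL23 (uL13m) had -0.38 at high and 0.79 at low power, the widest such gap of any member.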
